A study of Rattus norvegicus with 14 samples.

Results

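The comparison described here sets the blood cells of arthritic rats after needle stimulation beside those of healthy rats that had no therapy, and asks how close the former are to the latter. Its members are 6 of the 14 Affymetrix arrays of the series, chosen by their titles: 3 of the group labelled AP after 34 days of acupuncture and 3 of the group labelled NORA before therapy. In the codes of the study these are MS_A, arthritic rats after mechanical stimulation (MS), and NOCIA_B, animals without collagen-induced arthritis (CIA) at the start. All 6 arrays hold peripheral blood mononuclear cells (PBMC) of female Wistar rats, collected on a Ficoll gradient, and neither group carries a drug or a transgene. MS_A rats had been immunised with bovine type II collagen in Freund's adjuvant and then had a thin needle inserted and twirled at the lower back and below the knee for 34 days, whereas NOCIA_B rats had neither immunisation nor needling and were sampled on day 0. Arthritis, immunisation, needling, days of housing and the later sampling day therefore differ together between the groups and cannot be told apart, and the ages of the rats are not given in the sources used here. The rats were killed at sampling, so no animal is on both sides, and the labels do not say whether an array holds 1 rat or a pool.

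Collagen-induced arthritis is an immune attack on the joints that follows immunisation against cartilage collagen, with T cells and B cells specific for collagen and with monocytes and neutrophils that carry the swelling. Mononuclear cells from blood are mostly T cells, B cells, natural killer (NK) cells and monocytes, and the gradient also carries over some platelets, red cells and neutrophils. Their transcripts report both how many cells of each kind were present and how active these were. In bulk samples of this sort fewer cells of a type and less RNA per cell cannot be told apart. The collected cells carried the transcripts of their label: Cd3e, a chain of the T cell receptor complex, read between 12.04 and 12.49 in log2 signal on the 6 arrays, and Ms4a1, the B cell antigen CD20, between 11.15 and 12.35. Of the markers of tissues outside the blood that are on the array, 5 of 11 genes of liver and plasma proteins and 3 of 13 of muscle, skin and stroma passed the filter on low signal.

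Values are MAS5 signals, 1 linear intensity for each probe set, the group of probes that reads 1 transcript, and every array has the same trimmed mean of 500. A total of 18515 of 31042 probe sets were tested, those brighter than the median probe set of an array on 2 or more of the 14, and 10107 genes with 1 symbol were represented by their brightest probe set. A log2 difference is always MS_A minus NOCIA_B, so 1 is a doubling in MS_A, and its standard error (SE) and 95% interval come from limma fitted to all 14 arrays.

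As whole profiles, pairs of arrays between the groups lay further apart than pairs within MS_A and less far apart than pairs within NOCIA_B. The distance of a pair of arrays was taken as the median absolute difference of log2 signal over all probe sets tested. It was 0.474, 0.655 and 0.476 for the 3 pairs of NOCIA_B arrays and 0.315, 0.409 and 0.335 for the 3 pairs of MS_A arrays. The 9 pairs that join the groups ran from 0.299 to 0.563 with a mean of 0.423, between the mean of 0.353 within MS_A and that of 0.535 within NOCIA_B. NOCIA_B replicate 2 was nearer to each of the 3 MS_A arrays, at 0.331, 0.352 and 0.299, than to either of the other healthy arrays. The mean distance between groups minus that within groups was -0.0207, with p = 0.7 by an exact permutation test over the 20 labellings of 6 arrays, one-sided for a larger distance between groups, with 0.1 the smallest p possible. Its sign rested on the spread of the healthy arrays: without NOCIA_B replicate 1, 2 or 3 it was 0.0206, 0.0427 or 0.0109, and the exact permutation p was 0.4, 0.3 or 0.5. A median distance of 0.423 corresponds to a typical ratio of 1.34 between an MS_A and a NOCIA_B array.

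**Figure D1:**
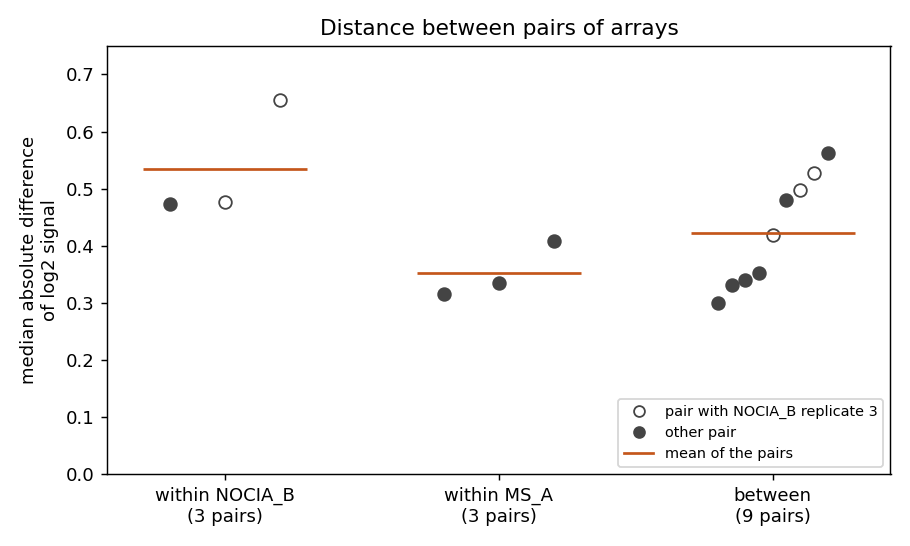
Each point is 1 pair of the 6 arrays, with its distance as the median absolute difference of log2 signal over 18515 probe sets on the vertical axis, and orange lines are means of the pairs. Pairs between the groups have a mean of 0.423 and overlap those within NOCIA_B and within MS_A; open points hold NOCIA_B replicate 3.

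The other groups of the series give a scale for this closeness, with the same 3 healthy arrays as reference in each case. The mean distance to the NOCIA_B arrays was 0.400, 0.417 and 0.453 for the 3 MS_A arrays and 0.481 and 0.427 for the 2 arrays of untreated arthritic rats (CIA_B). It was 0.461, 0.421 and 0.403 for healthy rats after needling (NOCIAMS_A) and 0.468, 0.432 and 0.530 for arthritic rats given methotrexate with needling (MTXMS_A). MS_A had the lowest group mean, 0.423 against 0.454, 0.428 and 0.477. None of the 3 differences from MS_A passed a two-sided exact permutation test, with p of 0.4, 0.7 and 0.2 and Benjamini-Hochberg adjusted p of 0.6, 0.7 and 0.6, in designs that cannot go below 0.1. Stimulated arthritic rats were thus not shown to be nearer to healthy blood than any other group.

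NOCIA_B was the more variable side. The median SD of log2 signal over the 3 arrays was 0.456 in NOCIA_B and 0.308 in MS_A, and the SD was larger in NOCIA_B for 70.7% of the probe sets. NOCIA_B replicate 3 stood apart from the series, with the lowest mean correlation with the other 13 arrays (0.855, against 0.882 to 0.934), the highest ratio of spiked-in control signal to the median of the arrays (1.73) and, of the 6 arrays, the highest red cell score.

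Gene by gene, no probe set passed a limma Benjamini-Hochberg adjusted p of 0.05, 0 of 18515 (0%). The lowest adjusted p was 0.223, for Adh1c, an alcohol dehydrogenase, whose log2 signal was 7.07, 6.22 and 7.53 in NOCIA_B and 3.21, 3.46 and 3.04 in MS_A (-3.70 ± 0.51). Its brighter probe set gave -1.93. An unadjusted p under 0.05 was reached by 731 probe sets (3.95%), 439 of them higher and 292 lower in MS_A. The thresholds used in the study, unadjusted p under 0.05 with a fold over 2, were met by 221 probe sets (1.19%). Of these 121 were higher and 100 lower, a split of 54.8% upward. With arrays centred on their medians it was 66.9% upward (164 and 81), and with no filter on signal 39.0% (348 and 544). The 3 and 3 arrays did not overlap for 1364 probe sets (7.37%), of which 884 were higher and 480 lower in MS_A.

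Absence of a call does not by itself show similarity, so the 95% intervals were read for what they exclude. For 10150 of 18515 probe sets (54.8%) the whole interval lay within 2-fold of the healthy level in both directions, and the same held for 6082 of 10107 genes (60.2%). The share depended on signal. Among the dimmest 10% of probe sets 2.59% could be placed within 2-fold, with a median interval half-width of 1.55, while in the ninth of 10 equal bins by signal 77.5% could, with a half-width of 0.54. Over all probe sets the median size of the difference was 0.22, and 3.69% differed by more than 1 on the log2 scale in the point estimate. For the remaining probe sets the interval reached a difference of 2-fold or more in at least 1 direction.

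**Figure D2:**
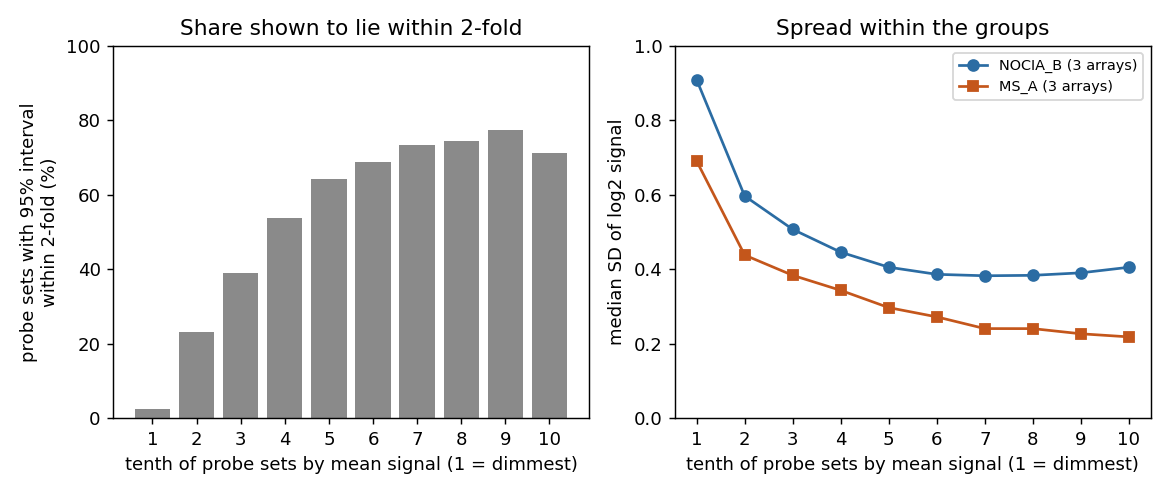
Left, percent of probe sets whose 95% interval for MS_A minus NOCIA_B lies within 2-fold (vertical axis) in 10 equal bins of the 18515 probe sets by mean log2 signal (horizontal axis); right, median SD of log2 signal within each group of 3 arrays for the same bins. The share climbs from 2.59% in the dimmest bin to 77.5% in the ninth, and the SD of NOCIA_B lies above that of MS_A in every bin.

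The 6 genes placed nearest to the healthy level were ranked among genes of the lists only. They were 3 mitochondrial genes, Ndufb9 of complex I, Atp5pd of ATP synthase and Cox6c of cytochrome oxidase, 2 genes of the actin system, Actr2 and Cdc42, and the splicing factor Sf3b3. Ndufb9 had log2 signals of 12.53, 12.29 and 12.54 in NOCIA_B and 12.50, 12.51 and 12.43 in MS_A, a difference of 0.02 with a 95% interval of -0.31 to 0.36. Actr2, a subunit of the Arp2/3 complex that branches actin filaments, differed by -0.02 (-0.36 to 0.31), and Cdc42, a GTPase of cell polarity, by -0.01 (-0.38 to 0.37). The largest bounds of the 6 genes ran from 0.357 for Ndufb9 to 0.403 for Sf3b3.

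Complexes were described by the number of members within 2-fold. Proteasome subunits lay within 2-fold for 35 of 36 genes, with a median difference of 0.14, and cytosolic ribosomal proteins for 38 of 41, with -0.17. Respiratory chain and ATP synthase genes did for 72 of 79 (median 0.10), mitochondrial ribosomal proteins for 63 of 73 (0.15), splicing factors and hnRNPs for 40 of 48 (0.02) and heat shock proteins and chaperones for 14 of 16 (0.06). Without NOCIA_B replicate 3 the medians were 0.06 for the proteasome, 0.04 for mitochondrial ribosomal proteins, -0.17 for splicing factors and -0.07 for heat shock proteins. The shares within 2-fold are all above the 60.2% of all genes, and bright genes in general have the higher share. The median of all genes was 0.03, with 54% above 0.

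Respiratory chain genes were above 0 for 55 of 79, and 7 had an unadjusted p under 0.05 upward, beside 2.78% of all genes, while 12 had arrays that did not overlap, beside 5.79%. The 7 became 0 without MS_A replicate 3, 2 without MS_A replicate 2 or NOCIA_B replicate 3, and 3 without MS_A replicate 1. Ndufb1 of complex I read 11.67, 11.76 and 11.48 in NOCIA_B and 12.04, 11.92 and 12.17 in MS_A, a difference of 0.41 ± 0.16 (SE), Ndufb10 had 0.37 ± 0.15 and Sdhb, the iron-sulphur subunit of succinate dehydrogenase, 0.41 ± 0.17. Ribosomal proteins leaned the other way, with 39 of 41 below 0, none of them lower at an unadjusted p under 0.05, beside 0.98% of all genes, and 1 lower with no overlap, beside 2.04%. Rps29 had the lowest p, at -0.46 ± 0.26. Quantile normalization turned the ribosomal median from -0.17 to 0.17, so its direction depends on the scaling. Among mitochondrial ribosomal proteins Mrpl1 had 0.67 ± 0.26 and Mrps2 -0.57 ± 0.26.

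Gene lists of cell types and pathways are described next by their counts and medians, which carry no test of their own. Every gene named from here on had a limma Benjamini-Hochberg adjusted p of 0.999, further dimmer probe sets aside. A p under 0.05 in the counts is an unadjusted limma value of the brightest probe set of a gene. The group medians ran from 0.88 for monocyte markers to -0.64 for 5 genes of liver and plasma proteins, and the latter turned to 0.48 without NOCIA_B replicate 2.

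**Figure D3:**
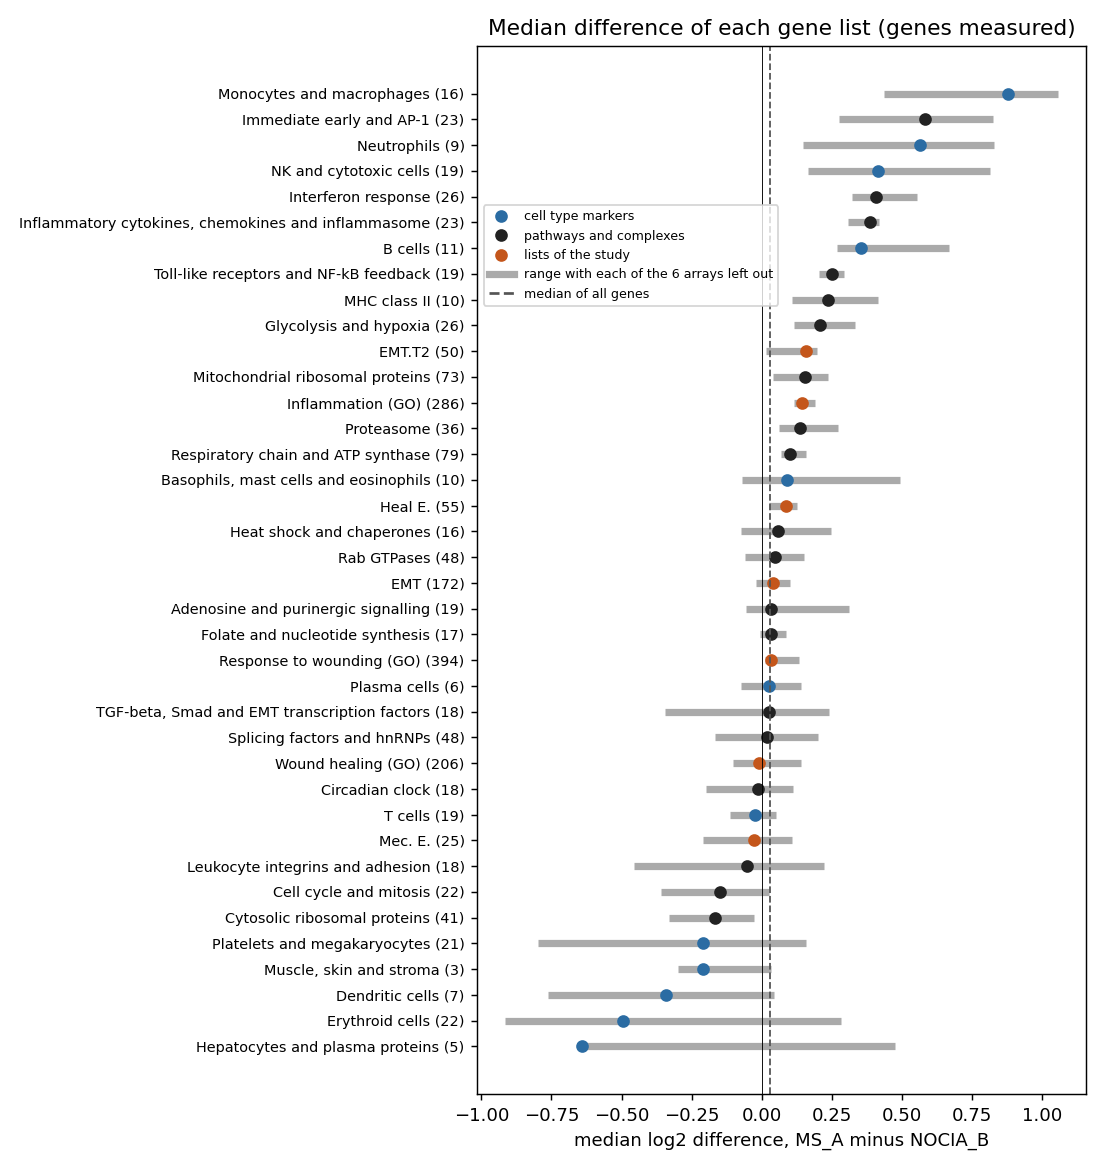
Points are the median log2 difference (MS_A minus NOCIA_B, horizontal axis) of each of 38 gene lists, with the number of genes measured in parentheses, grey bars the range when each of the 6 arrays is left out in turn, and the dashed line the median of all genes (0.03). Monocyte markers lie highest at 0.88, erythroid markers at -0.50 have a bar that crosses 0, and the ranges of T cell markers and of the wound healing term include 0.

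T cell and plasma cell markers had medians near 0. Of 19 T cell genes, 8 lay above 0 and 11 below, the median was -0.02 and none reached an unadjusted p of 0.05. Within 2-fold lay 15, beside 60.2% of all genes. Cd3e read 12.49, 12.04 and 12.32 in NOCIA_B and 12.32, 12.12 and 12.07 in MS_A, a difference of -0.11 with a 95% interval of -0.57 to 0.34. Within the list Cd2, an adhesion receptor of T and NK cells, had 0.33 ± 0.21, with 11.64, 11.22 and 11.10 against 11.66, 11.66 and 11.65. Il7r, the interleukin 7 receptor that keeps resting T cells alive, had -0.43 ± 0.27, and Lef1, a nuclear factor that marks naive T cells, -0.50 ± 0.41. Of plasma cell markers 5 of 6 lay within 2-fold, with a median of 0.03.

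B cell markers lay above the healthy level in 11 of 11 genes, with a median of 0.36. The scores show that MS_A was split: the list score, the mean of the genes after each is centred over the 6 arrays, was -0.17, -0.31 and -0.12 in NOCIA_B and 0.56, 0.43 and -0.39 in MS_A, so replicate 3 of MS_A was below all healthy arrays. Ms4a1 read 11.30, 11.15 and 11.40 in NOCIA_B and 12.07, 12.35 and 11.45 in MS_A, a difference of 0.67 ± 0.43. The 1 gene of the 11 with p under 0.05, beside 2.78% of all genes upward, was Stap1, an adaptor of B cell receptor signalling. Its difference was 0.55 ± 0.24, from 8.07, 7.98 and 8.25 to 8.68, 8.81 and 8.47. The count became 0 without NOCIA_B replicate 1 or 2 or MS_A replicate 1 or 2, and 2 without MS_A replicate 3.

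MHC class II genes, which present antigen to helper T cells and are carried by B cells and monocytes, were above 0 in 10 of 10, with a median of 0.24 and none with p under 0.05. Without NOCIA_B replicate 3 the median was 0.11 with 7 of 10 above 0, and without MS_A replicate 1 6 of 10 were above 0. The groups did not overlap for 2 of the 10, beside 5.79% of all genes, both chains of the peptide exchange factor DM: RT1-DMb read 12.16, 12.11 and 12.09 in NOCIA_B and 12.64, 12.70 and 12.43 in MS_A (0.47 ± 0.23), and RT1-DMa had 0.51 ± 0.26. Ciita, the master activator of class II transcription, had 0.56 ± 0.31, and 0.22 without NOCIA_B replicate 1. Of 7 dendritic cell genes 5 were below 0, with a median of -0.34 that was 0.04 without NOCIA_B replicate 2 and -0.76 without NOCIA_B replicate 1. The antigen-presenting molecule Cd1d1 was the 1 of these with p under 0.05, beside 2.78% of all genes upward. It had 0.48 ± 0.19, in the opposite direction to the median.

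NK and cytotoxic markers were above 0 in 17 of 19 genes (median 0.41), 3 of them with p under 0.05, beside 2.78% of all genes upward. Leaving out 1 array moved the median from 0.17 without MS_A replicate 2 to 0.82 without MS_A replicate 1, and the count from 1 to 8. The list score overlapped: -0.68, 0.19 and -0.23 in NOCIA_B, and -0.45, 0.79 and 0.37 in MS_A. Ncr1, the activating receptor NKp46, was 7.21, 9.25 and 9.43 in NOCIA_B and 9.12, 10.18 and 10.27 in MS_A, 1.23 ± 0.54. Without NOCIA_B replicate 1 its difference was 0.52. Gzmm, a granule protease, had 0.70 ± 0.31. The 1 gene of this list with no overlap, beside 5.79% of all genes, was Fcgr3a. It is an Fc receptor that NK cells share with monocytes and is given with the next group.

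Monocyte genes had the largest median difference of the lists in the main fit. Of 16 markers measured, 14 lay above 0, with a median of 0.88, or 1.84-fold, and 3 had p under 0.05, beside 2.78% of all genes upward, while 4 had arrays that did not overlap, beside 5.79%. The 3 became 0 without MS_A replicate 3 and 1 without NOCIA_B replicate 1, NOCIA_B replicate 3 or MS_A replicate 2. The list score was -0.81, 0.05 and -0.29 in NOCIA_B and 0.04, 0.21 and 0.79 in MS_A, so the groups touched only at NOCIA_B replicate 2 and MS_A replicate 1. The summed signal of the 16 genes ran from 62836 to 95491 in NOCIA_B and from 86088 to 111060 in MS_A. Without NOCIA_B replicate 1 the median was 0.44, the lowest of the values with 1 array left out, which ran to 1.06. In that setting platelet markers had -0.80 and dendritic cell markers -0.76. With array weights in the fit the monocyte median was 0.38, below 0.86 for neutrophil and 0.58 for B cell markers. The ranking of the lists thus depends on the setting.

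Among them Itgam, the integrin chain CD11b of myeloid cells, read 7.59, 8.71 and 8.49 in NOCIA_B and 9.17, 9.36 and 10.49 in MS_A, a difference of 1.41 ± 0.64. Cebpb, a transcription factor of the monocyte lineage, had 0.88 ± 0.40 with no overlap. Cd14, the coreceptor for bacterial lipopolysaccharide and a defining marker named outside the rule, had 10.75, 12.26 and 10.83 against 11.83, 11.66 and 13.17, so its groups overlapped (0.94 ± 0.69). The 2 markers below 0 were Lyz2, at -0.31 ± 0.23 with its interval within 2-fold, and Mrc1, at -0.93 ± 0.54, both with overlap.

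By the rule for single genes, the smallest p among bright genes at the thresholds of the study with no overlap of the arrays, 17 genes qualified upward and 0 downward. The 35 probe sets with 1 symbol that met the thresholds downward with no overlap were all dim, with NOCIA_B means of at most 8.83 against a limit of 9.08. The first 12 upward genes were Fcgr3a, Qpct, Nrp1, Gngt2, Lilrb4, Tlr2, Clec4a1, Ptpro, Nfkbiz, Upp1, Serpinb1a and Tnfsf13.

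Fcgr3a, the low-affinity Fc receptor CD16, had log2 signals of 10.73, 11.28 and 11.37 in NOCIA_B and 11.82, 12.79 and 12.17 in MS_A. Its difference was 1.13 ± 0.31, or 2.20-fold. Lilrb4, an inhibitory receptor of myeloid cells, read 10.48, 10.97 and 11.01 against 11.56, 11.70 and 12.26, 1.01 ± 0.31. Clec4a1, a C-type lectin of monocytes and dendritic cells, read 7.87, 9.13 and 8.59 against 9.36, 9.61 and 10.32, 1.23 ± 0.46. All 3 are receptors, and the rule that named them asks for arrays that do not overlap.

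Qpct, the enzyme glutaminyl cyclase that modifies chemokines, had the widest gap of the 12 at 1.62 ± 0.44, from 6.46, 8.17 and 8.39 to 9.26, 9.01 and 9.61. Without NOCIA_B replicate 1, its lowest array, the difference was 1.01. Nrp1, neuropilin, a coreceptor for semaphorins and VEGF, read 9.44, 9.83 and 9.01 against 10.73, 11.02 and 10.34, 1.27 ± 0.37. On this probe set Nrp1 stayed between 1.06 and 1.47 when each array was left out, while a dimmer probe set gave 0.34 ± 0.34.

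Gngt2, a gamma subunit of G proteins, had 1.00 ± 0.30, and Ptpro, a receptor tyrosine phosphatase, 1.03 ± 0.39. Upp1, uridine phosphorylase, had 8.87, 9.02 and 9.43 against 9.44, 9.65 and 11.27, so its 1.02 ± 0.40 rested on MS_A replicate 3, without which it was 0.44. Serpinb1a, an inhibitor of neutrophil proteases, had 1.39 ± 0.55 on the probe set that met the rule and 1.26 ± 0.64 with overlap on its brightest one. Tnfsf13, the B cell growth factor APRIL, had 1.01 ± 0.43 and, on its brightest probe set, 0.68 ± 0.47 with overlap.

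**Figure D4:**
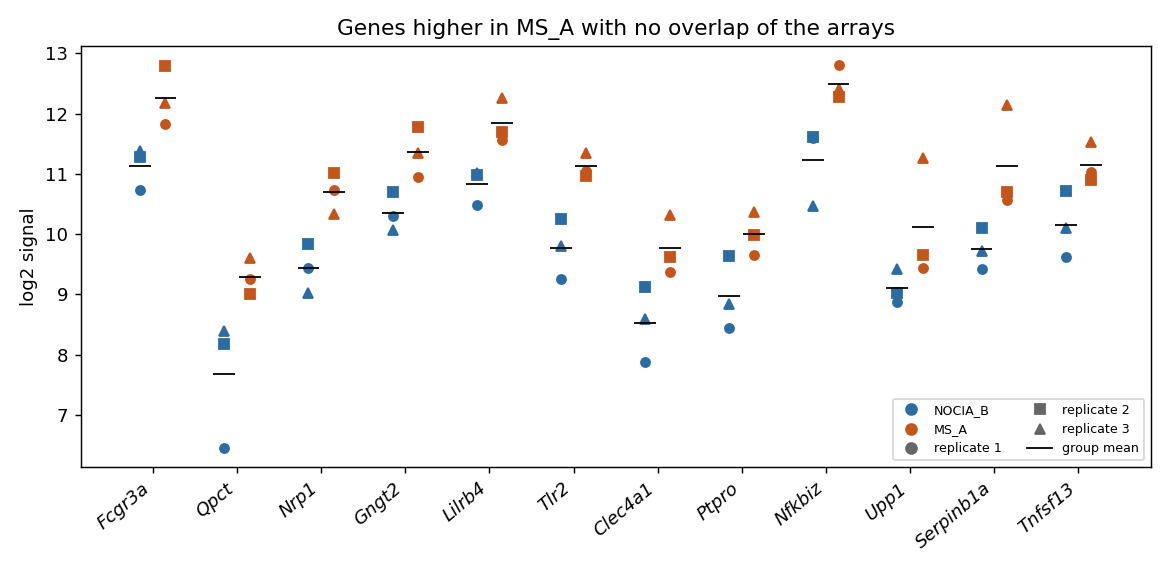
Log2 signal (vertical axis) of the 12 genes with the smallest p among those that met the thresholds of the study upward without overlap, on the 3 NOCIA_B and 3 MS_A arrays, with black lines as group means. They were chosen for this separation. The differences of Upp1 and Serpinb1a are widened by MS_A replicate 3, and that of Qpct by NOCIA_B replicate 1.

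Neutrophil markers, which ought to be rare in a mononuclear preparation, were above 0 in 9 of 9 genes with a median of 0.56, and their level followed single arrays. Without NOCIA_B replicate 2 the median was 0.15 with 6 of 9 above 0, and without NOCIA_B replicate 3 it was 0.83. The list score was -0.12, -1.07 and 0.33 in NOCIA_B and -0.23, 0.15 and 0.94 in MS_A, and the summed signal ran from 16471 to 34675 and from 23800 to 62964. Csf3r, the receptor for granulocyte colony-stimulating factor, read 9.75, 10.23 and 10.29 against 10.67, 10.35 and 12.41 (1.05 ± 0.46), and 0.42 without MS_A replicate 3. Cxcr2, a chemokine receptor of neutrophils, had 1.30 ± 0.52 at low signal. S100a9 and S100a8, which form the inflammatory protein calprotectin, had 0.52 ± 0.44 and 0.59 ± 0.60 with overlap. S100a9 was 0.15 without NOCIA_B replicate 2, and S100a8 was 0.08 without MS_A replicate 3. The part that neutrophil content plays in the myeloid differences was not tested.

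Toll-like receptor (TLR) and NF-kB feedback genes sense microbial products and damaged tissue and then limit the signal. Of 19 genes 14 were above 0, the median was 0.25, 4 had p under 0.05 upward, beside 2.78% of all genes, and 8 lay within 2-fold, beside 60.2%. The 4 became 2 without NOCIA_B replicate 1 or MS_A replicate 3. The list score did not overlap, with -0.08, -0.20 and -0.25 in NOCIA_B and 0.27, 0.17 and 0.10 in MS_A, and the median stayed between 0.21 and 0.29 when each of the 6 arrays was left out. Tlr2, the receptor for bacterial lipoproteins, read 9.26, 10.25 and 9.80 against 11.05, 10.97 and 11.35, 1.35 ± 0.45. Its partner Tlr1 read 7.82, 8.58 and 7.88 against 8.70, 8.74 and 9.73, 0.96 ± 0.33. Tlr8, a sensor of single-stranded RNA, had 1.01 ± 0.44 with overlap.

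Nfkbiz, an inducible nuclear regulator of NF-kB, read 11.60, 11.62 and 10.47 against 12.81, 12.27 and 12.40, 1.27 ± 0.50, and 0.88 without NOCIA_B replicate 3. Among 23 genes of inflammatory cytokines, chemokines and the inflammasome 16 were above 0 and 7 below (median 0.39). Of these 1 had p under 0.05 upward, beside 2.78% of all genes, and 3 lay within 2-fold, beside 60.2%. Il1b, the cytokine interleukin 1 beta, read 10.04, 9.81 and 10.43 in NOCIA_B and 12.27, 10.27 and 11.90 in MS_A, so 1 stimulated array lay among the healthy ones (1.38 ± 0.62). Il1rn, the natural antagonist of interleukin 1, read 6.99, 7.18 and 8.01 against 9.10, 8.35 and 9.08 with no overlap (1.45 ± 0.69). Both the cytokine and its antagonist thus had point estimates above the healthy level. Il12b of the same list went the other way, at -1.77 ± 0.92 and low signal.

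Interferon response genes were above 0 in 21 of 26, with a median of 0.41, 4 with p under 0.05 upward and 0 downward, beside 2.78% and 0.98% of all genes. The 4 became 2 without NOCIA_B replicate 1 or MS_A replicate 3. The list score was -0.43, -0.16 and 0.01 in NOCIA_B and 0.18, 0.19 and 0.20 in MS_A, so the MS_A arrays nearly coincided and lay above every healthy array. Besides the interferon and Toll-like receptor scores, those of the inflammatory cytokine and respiratory chain lists also did not overlap. No list score was tested, and 3 against 3 arrays allow no two-sided exact permutation p below 0.1. The interferon median stayed between 0.32 and 0.55 when each of the 6 arrays was left out. Psmb9, a catalytic subunit that interferon gamma brings into the immunoproteasome, read 11.43, 11.94 and 11.93 against 12.27, 12.70 and 12.76, 0.81 ± 0.23. Irf1, the transcription factor that interferon gamma induces first, read 11.06, 10.66 and 11.16 against 11.79, 11.88 and 11.59, 0.80 ± 0.23. Oas1a, an antiviral RNA sensor, had 0.87 ± 0.36, and 0.46 without MS_A replicate 3. Dhx58, a regulator of RNA sensing, had 1.00 ± 0.43 at low signal.

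Psmb9 was also the 1 proteasome gene of 36 that did not lie within 2-fold. The other inducible subunits had smaller values, with 11.12, 11.12 and 11.16 against 11.42, 11.56 and 11.58 for Psmb10 (0.39 ± 0.18, no overlap) and 0.40 ± 0.21 for Psmb8. The interferon list holds Rsad2, an antiviral enzyme, whose probe set was far brighter than the others and followed red cells: it read 14.61, 14.31 and 16.24 in NOCIA_B and 14.99, 15.27 and 13.84 in MS_A, while Alas2, the heme enzyme of red cell precursors, read 14.37, 13.09 and 16.14 and 14.37, 14.73 and 12.43. Without Rsad2, left out after seeing these values, the list median was 0.41, and the summed signal of the 25 other genes ran from 37993 to 45508 in NOCIA_B and from 51280 to 56179 in MS_A.

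Immediate early genes are switched on within minutes of a stimulus, or of handling of the cells, and encode AP-1 factors and their feedback phosphatases. They were above 0 in 19 of 23 with a median of 0.58, 4 had p under 0.05 upward, beside 2.78% of all genes, and 6 had arrays that did not overlap, beside 5.79%. The list score was 0.04, 0.05 and -0.81 in NOCIA_B and 0.46, 0.01 and 0.25 in MS_A, so the separation owed much to NOCIA_B replicate 3, and without it the median was 0.28 and none of the 23 had p under 0.05 upward. Junb, an AP-1 subunit, read 10.07, 9.73 and 8.83 against 10.56, 10.86 and 10.15 (0.98 ± 0.35), and 0.62 without that array. Ier2, a small early response gene, read 11.80, 11.82 and 11.11 against 12.46, 12.04 and 12.39 (0.72 ± 0.30).

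Dusp1, the phosphatase that ends MAP kinase signals, read 12.41, 12.69 and 11.95 against 13.14, 13.39 and 13.28 (0.92 ± 0.39), and the related Dusp5 had 0.62 ± 0.25 with overlap. Fos, the partner of Junb and the best known member, named outside the rule, read 11.67, 12.32 and 11.25 against 12.50, 12.75 and 13.52 (1.17 ± 0.57). Time from blood drawing to storage is not given in the sources used here, and its part in these values was not tested.

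**Figure D5:**
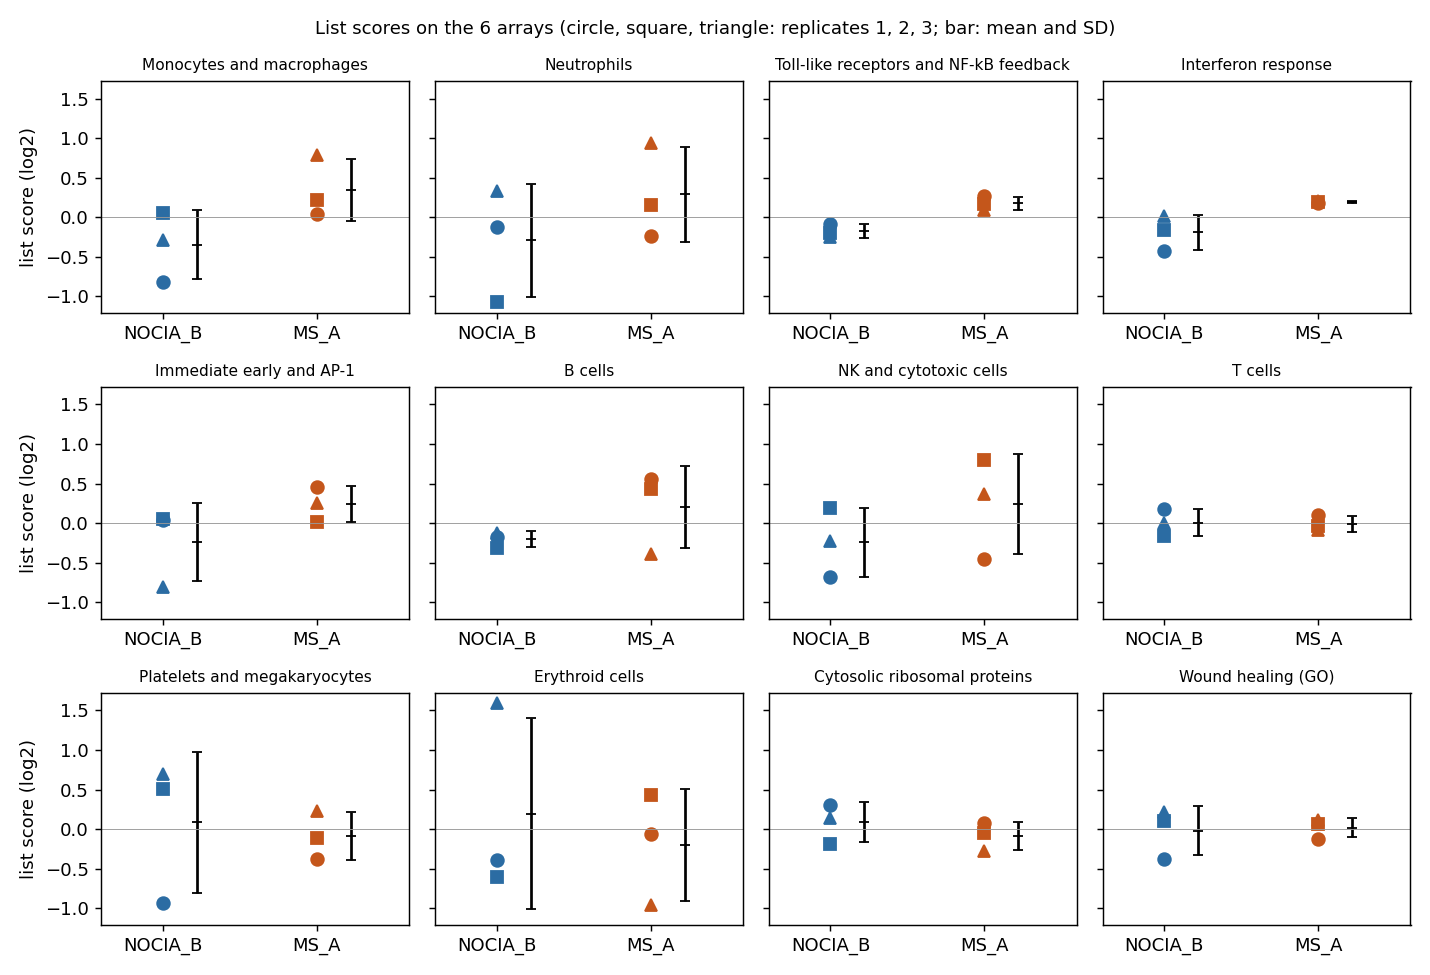
Score of 12 gene lists (mean log2 signal after centring each gene over the 6 arrays, vertical axis) on the 3 NOCIA_B and 3 MS_A arrays, with mean and SD beside them (n = 3 each). Toll-like receptor and interferon scores do not overlap between the groups, T cell scores do, and the erythroid score of NOCIA_B replicate 3 (1.59) lies apart.

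The start sites of the 12 genes of the interferon, Toll-like receptor and immediate early lists with the smallest p (up to 4 a list) were read for motifs of the factors known to act on such genes, over the 250 bases before the annotated start (RefSeq, build GRCr8, 11 of the 12 listed, without Dhx58). GAAA, any 2 bases and GAAA again, the core of the interferon-stimulated response element (ISRE), was found in Oas1a, and it stands in 3.41% of 33469 promoters of that length. TGACGTCA, the cyclic AMP response element (CRE), was found in Dusp1 and Ier2 (1.59%), and GGG, any 2 bases and TTTCC, bound by NF-kB, was found in Nfkbiz and Dusp5 (1.3%). The AP-1 site TGANTCA was found in 0 of the 11 (6.34%). Both strands were searched, and a match describes letters only. The promoters of Oas1a, Nfkbiz, Dusp1 and Ier2 are printed 5′ to 3′ as examples of these motifs, with the ISRE core, the NF-kB motif and the CRE in capitals:
Oas1a, chr12:41330216-41330465, plus strand: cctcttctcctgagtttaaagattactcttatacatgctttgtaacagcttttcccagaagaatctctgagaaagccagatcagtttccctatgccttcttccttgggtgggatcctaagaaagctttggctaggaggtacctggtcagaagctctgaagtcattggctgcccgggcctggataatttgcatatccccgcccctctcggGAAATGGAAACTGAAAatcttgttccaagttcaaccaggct
Nfkbiz, chr11:58251471-58251720, plus strand: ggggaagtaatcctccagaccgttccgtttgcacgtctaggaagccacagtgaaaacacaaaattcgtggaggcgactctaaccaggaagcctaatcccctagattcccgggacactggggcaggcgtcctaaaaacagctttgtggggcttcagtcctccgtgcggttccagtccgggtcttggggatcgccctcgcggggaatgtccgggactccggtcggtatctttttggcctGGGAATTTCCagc
Dusp1, chr10:17184603-17184852, plus strand: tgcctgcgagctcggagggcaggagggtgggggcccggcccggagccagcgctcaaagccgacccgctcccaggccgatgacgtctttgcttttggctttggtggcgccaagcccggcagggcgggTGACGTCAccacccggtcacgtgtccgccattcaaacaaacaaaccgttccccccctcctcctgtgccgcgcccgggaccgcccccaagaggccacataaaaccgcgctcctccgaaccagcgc
Ier2, chr19:40399123-40399372, plus strand: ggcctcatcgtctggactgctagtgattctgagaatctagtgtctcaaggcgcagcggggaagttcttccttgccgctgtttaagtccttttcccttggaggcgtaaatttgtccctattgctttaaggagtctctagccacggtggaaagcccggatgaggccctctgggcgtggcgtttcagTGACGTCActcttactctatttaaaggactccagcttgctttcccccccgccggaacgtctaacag

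Platelet markers were below 0 in 17 of 21 genes with a median of -0.21, and none had p under 0.05. None could be placed within 2-fold, beside 60.2% of all genes. The healthy arrays differed more among themselves, with scores of -0.94, 0.51 and 0.69, than the MS_A arrays did, with -0.38, -0.11 and 0.23. The summed signal ran from 181446 to 589030 in NOCIA_B and from 242014 to 314917 in MS_A. Pf4, a chemokine of platelet granules, had -0.42 ± 0.30, and Clec1b, the podoplanin receptor of platelets, -0.34 ± 0.31. Without NOCIA_B replicate 3 the median turned to 0.16, with 16 of 21 above 0, and without NOCIA_B replicate 1 it was -0.80.

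Erythroid markers were below 0 in 20 of 22 with a median of -0.50 and none with p under 0.05. Their score was 1.59 in NOCIA_B replicate 3 against -0.39 and -0.60 in the other healthy arrays and -0.06, 0.43 and -0.96 in MS_A. Without that array the median was 0.28 and 18 of 22 were above 0. Epb41, a protein of the red cell skeleton, read 13.53, 13.77 and 15.33 in NOCIA_B and 13.55, 13.73 and 13.41 in MS_A, and Gata1, the transcription factor of red cells and platelets, had -0.56 ± 0.62. Neither cell type thus gave a direction that held without NOCIA_B replicate 3.

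The gene lists that the study built for mechanical stimulation and healing had medians from -0.03 to 0.16, beside 0.03 for all genes. Early mechanotransduction (Mec. E.) had a median of -0.03 over 25 genes and early healing (Heal E.) 0.09 over 55. Epithelial-mesenchymal transition (EMT) had 0.04 over 172 genes, and its type linked to wound repair (EMT.T2) 0.16 over 50. The ontology terms wound healing and response to wounding had -0.01 over 206 and 0.03 over 394. Within 2-fold lay 9 genes of Mec. E., 25 of Heal E., 78 of EMT, 19 of EMT.T2, 70 of wound healing and 143 of response to wounding. These shares ran from 34.0% to 45.5%, beside 60.2% of all genes, so the medians do not place the members near the healthy level. The term inflammation had 0.14 over 286, of which 178 were above 0, 15 had p under 0.05 upward and 6 downward, and 94 lay within 2-fold. The shares of all genes were 54% above 0, 2.78% and 0.98% at p under 0.05, and 60.2% within 2-fold. The 15 became 4 without MS_A replicate 3, 7 without MS_A replicate 2 and 8 without NOCIA_B replicate 3. In the wound healing term 101 of 206 were above 0, with 6 and 4 at p under 0.05, its median was 0.14 without NOCIA_B replicate 3, and its score was -0.38, 0.11 and 0.21 in NOCIA_B and -0.12, 0.06 and 0.11 in MS_A.

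Genes of TGF-beta, Smad and EMT transcription factors had a median of 0.03 over 18, and -0.35 without NOCIA_B replicate 3. Snai1, a repressor of epithelial genes, read 6.68, 7.72 and 8.06 in NOCIA_B and 5.01, 6.79 and 7.13 in MS_A, so the groups overlapped (-1.18 ± 0.49). Zeb1, a factor of the same kind that T cells also use, read 12.24, 10.89 and 10.87 against 10.86, 10.66 and 10.04 (-0.81 ± 0.40). With arrays left out the difference of Zeb1 ran from -1.04 to -0.36.

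Adenosine and folate genes, which methotrexate acts on, had medians close to the 0.03 of all genes. The adenosine and purinergic list had 0.03 over 19 genes (-0.06 without NOCIA_B replicate 1 and 0.31 without NOCIA_B replicate 3). Of the 19 genes 5 lay within 2-fold, beside 60.2% of all genes. The 1 gene of this list with p under 0.05, beside 0.98% of all genes downward, was Entpd1, the ectoenzyme CD39 that degrades ATP. It had -1.32 ± 0.60 with overlap and at low signal. P2rx4, an ATP-gated channel, read 8.75, 8.23 and 8.41 against 8.84, 9.49 and 9.06 (0.67 ± 0.31). Folate and nucleotide synthesis had 13 of 17 genes within 2-fold and a median of 0.03. The enzymes that add and remove glutamate tails on folates had opposite values, -1.70 ± 0.79 for Fpgs at low signal and 0.77 ± 0.36 for Ggh, neither with p under 0.05. Circadian clock genes had a median of -0.01 (-0.20 without NOCIA_B replicate 3), with 9 of 18 above 0 and none with p under 0.05. That count rests on brightest probe sets, on which Per2 had -0.30 ± 0.24. A dimmer Per2 probe set had -2.69 ± 0.62 at low signal, with an unadjusted limma p of 0.00104. Glycolysis and hypoxia genes had a median of 0.21, with 15 of 26 within 2-fold, beside 60.2% of all genes.

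Leukocyte integrins and adhesion genes had a median of -0.05 over 18, and 0.22 without NOCIA_B replicate 3. Jam3, a junctional adhesion molecule, had -1.38 ± 0.58 at low signal. Itgal, the integrin chain CD11a of all leukocytes, had the largest value of any list gene, 4.75 ± 2.25, but its probe set took 2 levels: 6.68 and 6.07 in NOCIA_B replicates 1 and 2, and 13.24 in replicate 3 beside 12.95, 13.56 and 13.74 in MS_A. Of cell cycle genes 15 of 22 were below 0 (median -0.15, and 0.03 without NOCIA_B replicate 3), while Aurka, a mitotic kinase, had 1.12 ± 0.43 with no overlap, and 0.49 without NOCIA_B replicate 3. Rab GTPases of vesicle traffic had a median of 0.05 over 48 genes, 30 of them within 2-fold, 62.5% beside 60.2% of all genes.

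Basophil, mast cell and eosinophil genes had 5 of 10 above 0. Gata2, a transcription factor of these cells and of blood stem cells, read 4.26, 5.25 and 3.45 in NOCIA_B and 6.07, 5.74 and 6.63 in MS_A (1.83 ± 0.58), low signals on all 6 arrays. Of 5 liver and plasma protein genes 2 were above 0, with 0.94 ± 0.49 for Apob, the carrier protein of lipids, and 0.28 ± 0.61 for Hp, which binds hemoglobin. Serpina1, the protease inhibitor antitrypsin, read 7.93, 7.85 and 8.24 against 7.26, 7.70 and 6.80 (-0.76 ± 0.28), and Ttr, the thyroid hormone carrier, had -0.64 ± 0.35, both with no overlap.

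Other groups set against the same NOCIA_B arrays give these values a frame, and since the healthy arrays are shared the numbers are only set side by side. Monocyte markers had medians of 0.88 in MS_A, 0.20 in CIA_B and 0.42 in NOCIAMS_A, and interferon genes 0.41, 0.11 and 0.29. Neutrophil markers had 0.56, 0.81 and 0.91, and platelet markers -0.21, -1.41 and -0.75. Toll-like receptor and NF-kB feedback genes had 0.25, 0.26 and 0.37, and inflammatory cytokine, chemokine and inflammasome genes 0.39, 0.09 and 0.53. The single genes that follow were named by their p in MS_A against NOCIA_B, a choice that favours large MS_A values. Tlr2 differed from NOCIA_B by 1.35 in MS_A, 0.15 in CIA_B and 0.43 in NOCIAMS_A, and Fcgr3a by 1.13, 0.58 and 0.38. Psmb9 had 0.81, 0.64 and 0.37, and Gata2 1.83, 1.94 and 1.93. The differences between these groups were not tested here.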

How the data were processed

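Blood mononuclear cells were measured on 14 rat230 2.0 arrays, in 5 groups taken from the sample titles. The matching of the title's groups to the study's codes was made here. The authors summarised each array with mas5 of the affy package (version not given in the sources used here), and the deposited values are linear intensity signals scaled to a trimmed mean of 500, whose log2 was taken here. Controls (57 probe sets) were left out, and probe sets above the array median on at least 2 arrays were kept. Of all probe sets 20826 had 1 gene symbol in the platform annotation, 436 several and 9780 none. Groups were fitted as means over all 14 arrays with limma 3.58.1 in R 4.3.3, with Benjamini-Hochberg adjustment and 95% intervals. Labels do not state that arrays are separate animals, so p-values measure the spread between these arrays, which may be technical, and the small number of arrays limits precision.

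The members and the 39 gene lists (7 of the study, 32 written here) were chosen with earlier results of these data known. Results of 1 list and a promoter motif are not reported here. The study chose its own lists, which are no independent evidence. Genes were named by 3 rules: up to 12 per direction at the thresholds of the study without overlap and with a higher group above the 60th percentile of level, by p; up to 4 per list by p; and the 6 list genes with the narrowest bounds around 0. Cd3e, Cd14, Lyz2, Mrc1, Fos, Alas2 and Adh1c were added after their values were seen. Alternatives were other normalizations, filters, a pseudocount of 16, array weights, no moderation, a replicate block and each array left out. The fit was tested on simulated data. Same-numbered arrays of the groups had deviation correlations of 0.37, -0.24 and -0.08. Deviations from a mean of 3 arrays depend on each other, so these values cannot decide whether the numbers pair samples.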

Additional observations from a re-analysis of the deposited data

How the results depend on the processing

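The count of probe sets past the limma adjusted p of 0.05 was 0 in every setting that kept all arrays, and 0 to 2 when each array was left out: 2 without NOCIA_B replicate 2, and 1 without CIA_B replicate 1 or 2. The count at the thresholds of the study, 221, became 892 with no filter, 80 with the stricter filter, 527 with array weights and 141 without moderation, and ran from 197 to 531 with arrays left out, highest without NOCIA_B replicate 2 and 440 without NOCIA_B replicate 1. With the replicate block it was 243, and the block changed no call. Without MS_A replicate 2 only 32.4% of that count was upward, and with no filter 39.0%, against 54.8%. The number of probe sets within 2-fold, 10150, stayed within 1.5 times in each setting, 7962 to 10406 with arrays left out and 8343 with the 6 arrays alone, but its share, 54.8%, was 31.0% with no filter. The distance between groups minus that within ran from -0.077 to 0.0427 with arrays left out.

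Of 73 genes, 67 kept their direction in every setting, and 17 of 39 list medians did. The exceptions among genes were Pf4 (0.016 with quantile normalization), Cd3e (0.051 with array weights), Gata1 (-1.23 to 0.015 with arrays left out), Rsad2 (0.39 with array weights, -0.72 to 0.24 with arrays left out), Hp (-0.28 with array weights, -0.19 to 0.58 with arrays left out) and Alas2 (0.69 with array weights, -1.41 to 0.12 with arrays left out). The cause was not tested. Dim probe sets limit the comparison, since 2.59% of the dimmest 10% could be placed within 2-fold.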

Other observations

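In 24 probe sets, 18 of them with 1 gene symbol, neighbouring values over the 14 arrays had a gap above 4 in log2 signal. In most of them 1 array lay apart from the other 13. For the red cell gene Alas2 this was replicate 3 of MTXMS_A, at 5.64 against 12.43 to 16.14 on the other arrays. Itgal had values near 6 or near 13 within NOCIA_B and within other groups.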
